A study of Mus musculus with 16 samples.

Results

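CD80lo medullary thymic epithelial cells of wild-type mice were compared with wild-type cortical thymic epithelial cells. The comparison took the 2 arrays titled as CD80lo mTEC and the 2 titled as cTEC, 4 of the 16 arrays of the series, and all probe sets other than the manufacturer's controls. Both populations were isolated by fluorescence-activated cell sorting. The CD80lo mTEC were the medullary cells with low surface CD80, and the labels name no CD80 gate for the cTEC. The other wild-type groups used here were CD80hi mTEC and mTEC that were not split by CD80, each with 2 arrays, and CD80lo mTEC of Aire knockout mice are named where they bear on a gene. Thymic dendritic cells, thymic macrophages and CD80hi mTEC of Aire knockout mice made up the rest of the series and served to estimate the spread between arrays. The sources used here give no age, strain or sort marker other than CD80. Nothing in the labels says whether the 2 arrays of a group came from separate mice, so the p-values measure the spread between these arrays, which may be technical.

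The thymus is lined by an epithelium with an outer cortical and an inner medullary part. Cortical epithelial cells attract lymphoid precursors, drive them into the T cell lineage through Notch ligands and positively select thymocytes on self-peptide loaded MHC molecules. Medullary epithelial cells display antigens of peripheral tissues to maturing thymocytes and thereby delete self-reactive cells. Part of that display depends on the nuclear regulator Aire, which is concentrated in the medullary cells with high MHC class II and CD80. The CD80lo fraction is a mixture in which immature medullary cells and cells that have passed the Aire stage are both known and which includes cells that make the chemokines drawing positively selected thymocytes into the medulla.

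The values were linear array intensities, in arbitrary units scaled to the same trimmed mean on every array. Fold changes are differences of mean log2(signal + 4.8), where 4.8 is the 20th percentile of all values, and they understate changes of dim genes. The SEs and p-values come from limma, which estimated the spread from all 16 arrays in 8 groups. The spread of groups that were not compared thus enters every SE and p-value. The p-values were adjusted by Benjamini-Hochberg over the 9319 probe sets tested, with a threshold of 0.05. The replicates correlated at r = 0.964 for CD80lo mTEC and r = 0.942 for cTEC over those probe sets. The arrays of the CD80-sorted groups had maximum signals of 8598 to 13671, against 2518 to 5630 on the 8 arrays of the other groups. The maxima were 10265.7 and 9840.7 on the CD80lo arrays and 2518 and 5461 on the cTEC arrays. The 18S control probe set for the 3′ end read 341.8 and 376.3 on the CD80lo arrays and 95.6 and 82.4 on the cTEC arrays. The actin control's 3′ to 5′ ratio was 11 and 8.37 on the CD80lo arrays and 6.98 and 11 on the cTEC arrays. The labels name no batch, but the compared groups lie in these different sets of arrays, and a difference between the sets and a difference between the cells cannot be told apart from these 4 arrays. A value within array sets was therefore computed as a check. It adds the distance of CD80lo mTEC from the mean of the CD80lo and CD80hi fractions, measured in the CD80-sorted set, to the distance of unfractionated mTEC from cTEC, measured in the other set. It is called the set-centred value below, and it assumes that unfractionated mTEC equal the mean of both fractions on the log2 scale. It reuses the CD80lo and cTEC arrays of the direct comparison, so a call held in both is not independent evidence. Where unfractionated mTEC lie above or below that mean, the set-centred value is raised or lowered. A call gained or lost there can come from this or from the array sets, which was not tested. In these bulk samples, fewer cells of a type and less RNA per cell cannot be told apart either.

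CD80lo mTEC differed from cTEC at 682 probe sets, or 7.32% of those tested. The signal was higher in CD80lo mTEC at 486 of them (5.22%) and lower at 196 (2.1%), and 1818 probe sets had an unadjusted p under 0.05. With the brightest probe set taken for each of the 6922 genes, 372 genes (5.37%) were higher and 164 (2.37%) were lower, 7.74% together, and the median log2 fold change of all genes was 0.02. Quantile normalization gave 430 higher and 224 lower probe sets, and it moved the median of all probe sets from 0.04 to -0.07. The calls were sensitive to single arrays. They numbered 205 without CD80lo array 1, 312 without CD80lo array 2, 299 without cTEC array 1 and 372 without cTEC array 2, and 140 of the 536 genes called were called in all 4 of these fits. The set-centred comparison called 448 probe sets higher (4.81%) and 114 lower (1.22%), 6.03% together, and it held the call of 306 of the 536 genes. Unfractionated mTEC, which lie in the same array set as the cTEC and are compared with the same cTEC arrays, were higher at 1038 probe sets (11.1%) and lower at 396 (4.25%), 15.4% together. Against CD80hi mTEC of its own array set, CD80lo mTEC were higher at 442 probe sets (4.74%) and lower at 744 (7.98%), 12.7% together.

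**Figure D1:**
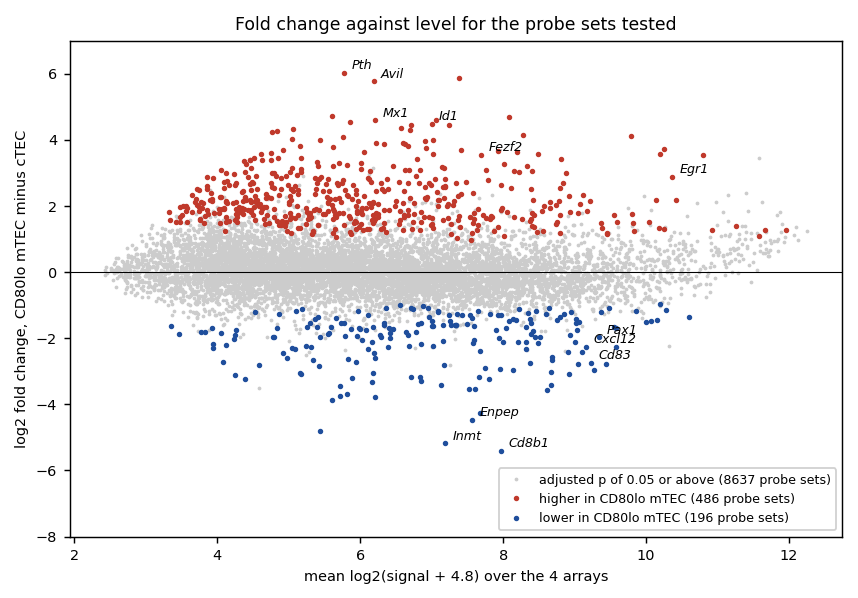
Log2 fold change of CD80lo mTEC minus cTEC (vertical axis) against the mean log2(signal + 4.8) of the 4 arrays (horizontal axis), 1 point for each of the 9319 probe sets tested. The 486 probe sets called higher are red, the 196 called lower are blue, and grey points were not past the threshold; many of the brightest probe sets lie above 0.

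Pth and Pax1 were the markers given for this comparison. Pth, which encodes parathyroid hormone, read 595.3 and 321.0 on the CD80lo arrays and 2.4 and 1.6 on the cTEC arrays. Its log2 fold change was 6.03 ± 0.49 (SE, n = 2 per group, adjusted p = 1.73e-05), the highest of all genes with this constant. The cTEC signals lie below the constant, so size and rank depend on it: the value was 7.20 with a constant of 1 and 4.56 with a larger one, where Avil stood higher at 4.62. Avil also stood higher in the set-centred comparison, at 6.51 against 6.12. Unfractionated mTEC read 111.3 and 82.1, CD80hi mTEC 12.9 and 18.1, and CD80lo mTEC of Aire knockout mice 1454.7 and 516.8. High Pth thus marked the CD80lo arrays of both genotypes among these groups. Pax1, a paired-box transcription factor needed for thymus development, read 375.8 and 278.4 on the CD80lo arrays and 1349.7 and 1221.9 on the cTEC arrays. It was lower in CD80lo mTEC at -1.97 ± 0.46 on the log2 scale (adjusted p = 0.0183), a call that was lost when any 1 of the 4 arrays was left out (largest adjusted p = 0.145). It was higher than in CD80hi mTEC, which read 90.0 and 90.9 (log2 fold change 1.79 ± 0.46, adjusted p = 0.0192). Of the given markers, Pth was thus highest in CD80lo mTEC, whereas Pax1 was highest in cTEC.

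The cells were next checked against a list of cortical genes. Enpep, glutamyl aminopeptidase and a surface antigen of cortical epithelium, read 30.8 and 40.5 on the CD80lo arrays and 999.3 and 789.9 on the cTEC arrays, or -4.48 ± 0.59 on the log2 scale (adjusted p = 0.000328). A second, dimmer probe set of Enpep gave 0.18 and was not past the threshold. Ly75, which encodes the endocytic receptor CD205, read 180.3 and 259.4 in CD80lo mTEC and 1456.4 and 2057.2 in cTEC, or -2.97 ± 0.59 on the log2 scale (adjusted p = 0.00656). Cd83, a regulator of surface MHC class II stability that cortical epithelium needs for CD4 T cell selection, read 299.2 and 172.2 against 1510.4 and 1595.7 (log2 fold change -2.75 ± 0.35, adjusted p = 0.000304). Another probe set of Cd83 gave -1.30 and was not past the threshold. Cd83 was not particular to cTEC in this series. It read 2136.8 and 1575.1 in thymic dendritic cells and 1352.6 and 1008.7 in thymic macrophages. Enpep and Ly75 were dimmer in both of those than in cTEC. Cxcl12, a chemokine for thymocyte precursors, read 224.1 and 295.2 against 1245.3 and 1248.7 (log2 fold change -2.26 ± 0.59, adjusted p = 0.0316). All 4 were selected by the threshold. Enpep and Cd83 kept the call without each array in turn, Ly75 lost it without CD80lo array 1 or cTEC array 2 (largest adjusted p = 0.0871), and Cxcl12 lost it without any 1 of the 4 (largest adjusted p = 0.221).

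These 4 were the members of the 13 tested cortical genes that passed, and no member passed as higher. With only the compared groups fitted, 5 members were lower and 1 was higher. The list had a median log2 fold change of -0.78, and all 4 calls held in the set-centred comparison. Of all tested genes 5.37% were higher and 2.37% lower, shares that also stand beside the list counts below. Ccl25, the ligand of the precursor homing receptor CCR9, read 461.5 and 736.8 in CD80lo mTEC and 2082.7 and 3714.8 in cTEC but did not pass (log2 fold change -2.24 ± 0.70, adjusted p = 0.0735). Foxn1, the master transcription factor of thymic epithelium, read 18.9 and 21.2 against 42.2 and 33.7 and did not pass (adjusted p = 0.253). Kitl, which encodes stem cell factor, read 45.9 and 66.6 against 95.4 and 189.7 and did not pass either (adjusted p = 0.313). The keratin genes Krt8 and Krt18, made by both epithelial types at different densities, gave log2 fold changes of 0.01 and -0.15. Ctsl, the lysosomal protease cathepsin L of cortical epithelium, read 3006.1 and 4049.2 in CD80lo mTEC and 1249.3 and 2960.2 in cTEC, a difference of 0.86 that did not pass (adjusted p = 0.38). Scx, which encodes the tendon transcription factor scleraxis, had the largest value against the direction of the list, with 272.9 and 296.8 against 101.8 and 60.4 (1.80 ± 0.73, adjusted p = 0.182). Il7, the lymphoid growth factor gene, gave 0.60 and Bmp4 -0.10, neither past the threshold.

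The distance from CD80hi mTEC of the same array set differed in sign among the cortical genes. Cxcl12 read 14.5 and 16.6 in CD80hi mTEC, Ctsl 555.4 and 733.3, and Scx 47.9 and 30.0, and all 3 were higher in CD80lo than in CD80hi mTEC, by 3.69 (adjusted p = 0.000739), 2.44 (adjusted p = 0.00382) and 2.76 (adjusted p = 0.0225). Ccl25 read 1612.7 and 1638.3 in CD80hi mTEC, between its CD80lo and cTEC values, and its difference of -1.47 between CD80lo and CD80hi mTEC did not pass (adjusted p = 0.226). Cd83, Ly75 and Enpep had differences of -0.65, -0.56 and -0.52 that did not pass either.

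**Figure D2:**
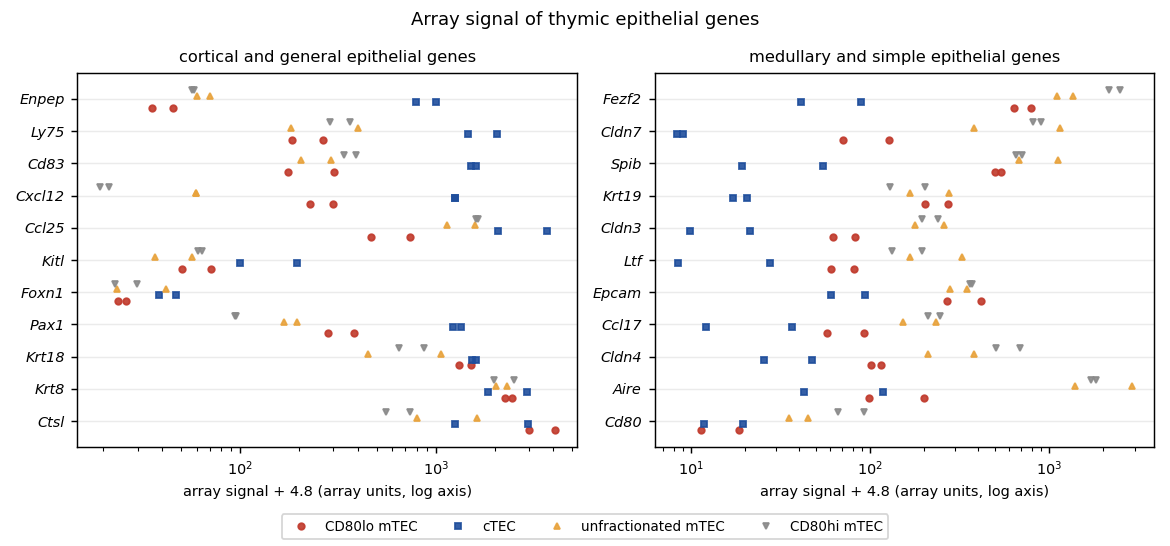
Signal + 4.8 (array units, log axis) of 11 cortical or general epithelial genes and 11 medullary or simple epithelial genes, 1 point per array for CD80lo mTEC, cTEC, unfractionated mTEC and CD80hi mTEC. Enpep, Ly75 and Cd83 separate cTEC from all mTEC groups, Cxcl12 and Pax1 are graded, and Aire and Cd80 overlap or lie close between CD80lo mTEC and cTEC.

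Of the 15 tested genes of the medullary list, 5 were higher in CD80lo mTEC (all genes 5.37%) and none was lower. The list's median log2 fold change was 1.36. The same list had a median of 2.55 in unfractionated mTEC against the shared cTEC arrays, with 11 members higher. Fezf2, a transcription factor that drives Aire-independent tissue antigens, read 789.3 and 631.9 on the CD80lo arrays and 36.4 and 83.9 on the cTEC arrays (log2 fold change 3.56 ± 0.61, adjusted p = 0.00272). It was brighter still on the CD80hi arrays, at 2470.1 and 2156.8. Cldn3, a tight junction claudin, was higher by 2.29 ± 0.40 (adjusted p = 0.00299), although another probe set gave 1.02 and was not past the threshold. Ltf (lactoferrin), Epcam (an epithelial adhesion molecule) and Ccl17 (a ligand of CCR4) were higher by 2.19, 2.15 and 1.79. Fezf2 alone kept its call without each array in turn. Cldn3 lost it without CD80lo array 1 (adjusted p = 0.0535), and the others without 2 or 3 of the arrays (largest adjusted p 0.162 for Epcam, 0.255 for Ltf and 0.424 for Ccl17).

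Aire itself did not pass. It read 195.6 and 94.4 in CD80lo mTEC and 37.8 and 113.2 in cTEC (log2 fold change 0.99 ± 0.51, adjusted p = 0.312), and the groups overlapped. CD80hi mTEC read 1828.6 and 1704.5 and unfractionated mTEC 1386.0 and 2886.8. With unfractionated mTEC at the CD80hi level, the set-centred value of Aire was 3.0 and passed (adjusted p = 0.00568), and so did that of Ctss, cathepsin S, at 1.72 (adjusted p = 0.0357). Cd80, the gene of the sort marker, read 13.7 and 6.6 in CD80lo mTEC, 7.1 and 14.8 in cTEC and 61.3 and 87.5 in CD80hi mTEC. The tested members Cldn4, Ctss, Ccl22, Tnfrsf11a and Relb had positive fold changes from 0.93 to 1.87 that did not pass. Krt5 and Krt14, the keratins that define medullary cells in tissue sections, were at most 18.2 and 15.1 on any of the 16 arrays and were not tested, so they could not check the label. In all, Enpep, Ly75, Cd83, Cxcl12, Fezf2, Cldn3, Ltf, Epcam and Ccl17 passed in the direction of the labels. Of these only Enpep, Cd83 and Fezf2 kept their calls without each array. The other 9 cortical genes and the other medullary genes did not pass. The high-CD80 markers Aire and Cd80 overlapped between CD80lo mTEC and cTEC.

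Among the simple epithelial and junction genes, Krt19 read 266.9 and 199.3 in CD80lo mTEC and 15.7 and 12.4 in cTEC (log2 fold change 3.65 ± 0.45, adjusted p = 0.00022). It was the only 1 of 16 keratins to pass, a share near the 7.74% of all genes. Cldn7 read 122.8 and 65.8 against 4.2 and 3.6, or 3.45 ± 0.45 on the log2 scale (adjusted p = 0.000315). Its level in CD80hi mTEC was 890.9 and 811.7, and the other claudins Cldn3 and Cldn4 were brighter there too. The desmosomal genes Pkp2 (plakophilin 2) and Dsg2 (desmoglein 2) and the hemidesmosomal collagen gene Col17a1 were higher by 2.83, 2.0 and 1.60. A second probe set of Pkp2 (1.23) and of Dsg2 (0.42) did not pass. In total 5 of 23 junction genes were higher (all genes 5.37%) and none lower. The list median of 1.07 stood at 0.19 in the set-centred comparison. Krt19, Cldn7 and Pkp2 kept their calls without each array. Dsg2 and Col17a1 lost theirs without either CD80lo array or without cTEC array 1 (largest adjusted p 0.105 and 0.348). Their set-centred values were 1.54 (adjusted p = 0.0642) and 1.52 (adjusted p = 0.0916).

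The transcription factor list, which holds genes of thymus and parathyroid organ formation, gave 1 member higher and 1 lower of 15. Ehf, an epithelial ETS factor, read 35.3 and 51.8 in CD80lo mTEC and 3.8 and 2.0 in cTEC (log2 fold change 2.64 ± 0.44, adjusted p = 0.0021) and kept its call without each array. The lower member was Pax1. The pouch genes Hoxa3, Eya1, Pax9 and Six4 gave fold changes of 0.80, 0.72, 0.71 and 0.12 that did not pass, and Trp63, the p63 gene of epithelial progenitors, gave 0.32. Spib, an ETS factor of the B cell list that mTEC also use, read 532.0 and 492.9 in CD80lo mTEC against 14.5 and 50 (log2 fold change 3.99 ± 0.54, adjusted p = 0.000411), while a second, dimmer probe set gave 0.72 and did not pass. Of the 6 parathyroid genes tested, Pth and Chga were higher and Gata3, Vdr, Rxrb and Cyp27b1 were not past the threshold, with fold changes from 0.00 to 0.36. Chga, which encodes the secretory granule protein chromogranin A, read 562.3 and 414.2 against 31.1 and 9.2 (log2 fold change 4.44 ± 0.67, adjusted p = 0.00108). Pth and Chga kept their calls without each array and in the set-centred comparison, where they stood at 6.12 and 4.16.

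The 12 genes with the highest fold changes past the threshold began with Pth and included several that were nearly dark in cTEC. Avil, which encodes the actin-bundling protein advillin of tuft cells, read 520.0 and 548.0 in CD80lo mTEC and 5.8 and 4.4 in cTEC (log2 fold change 5.77 ± 0.48, adjusted p = 1.78e-05). Ccl11, the eosinophil chemokine eotaxin, read 314.0 and 192.2 against 2.4 and 7.6 (4.73 ± 0.47, adjusted p = 4.05e-05). It was low in unfractionated mTEC, at 24.6 and 20.9, and in CD80hi mTEC, at 19.8 and 7.7. Id1, an inhibitor of basic helix-loop-helix factors, read 555.1 and 649.8 against 28.1 and 17.4 (4.49 ± 0.38, adjusted p = 1.78e-05), with 27.3 and 23.9 in CD80hi mTEC. Ch25h, cholesterol 25-hydroxylase, read 291.4 and 633.0 against 15.0 and 17.4 (4.37 ± 0.41, adjusted p = 3.37e-05), with 18.5 and 25.8 in CD80hi mTEC. Ccl11, Id1 and Ch25h thus differed from CD80hi mTEC of the same array set almost as much as from cTEC.

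Other members of the 12 were shared with CD80hi mTEC. Wfdc18, a whey acidic protein family gene, read 1723.5 and 1101.6 in CD80lo mTEC, 36.7 and 62.7 in cTEC and 1702.4 and 1103.7 in CD80hi mTEC. Its log2 fold change was 4.71 ± 0.42 against cTEC (adjusted p = 2.28e-05) and 0.01 against CD80hi mTEC. Slc34a2, a sodium-phosphate cotransporter, read 111.5 and 115.2 against 2.0 and 0.9 and was close to its CD80hi values of 82.5 and 72.6. Cavin3 (a caveola coat component), Mx1 (an interferon-induced GTPase), Vwf (von Willebrand factor) and Cpxm2 (a carboxypeptidase-like protein) completed the 12, with fold changes of 4.61, 4.59, 4.55 and 4.30. All 12 kept their calls without each array in turn and in the set-centred comparison. Both reuse arrays on which the 12 were selected, so they do not test the choice of genes.

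**Figure D3:**
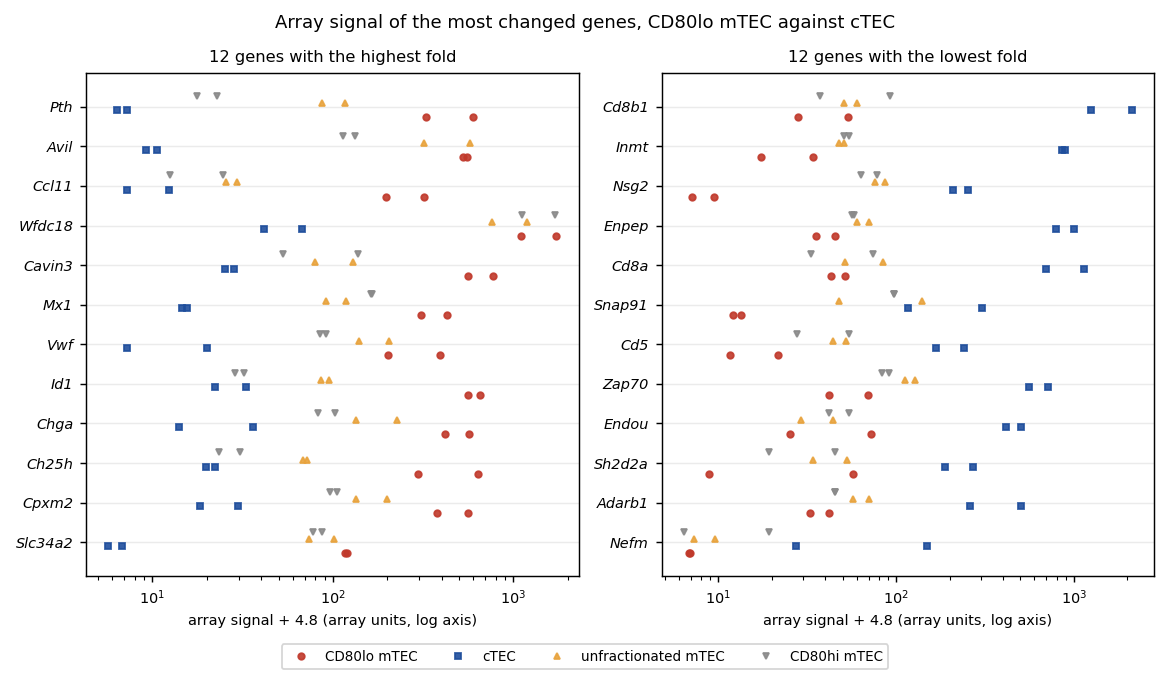
Signal + 4.8 (array units, log axis) of the 12 genes with the highest and the 12 with the lowest log2 fold change past adjusted p 0.05, 1 point per array for 4 wild-type groups. The choice of genes sets the order of CD80lo mTEC and cTEC; unfractionated mTEC lie between them or beside CD80lo mTEC for most.

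Of 6 tuft cell genes tested, 3 were higher (all genes 5.37%) and none lower, with a median of 1.43. Besides Avil these were Pou2f3, the transcription factor that specifies tuft cells, at 102.1 and 86.8 against 12.3 and 12.9 (log2 fold change 2.51 ± 0.32, adjusted p = 0.000287), and Ltc4s, the leukotriene C4 synthase gene, at 1.67 ± 0.44 (adjusted p = 0.0316). Avil and Pou2f3 kept their calls without each array, and Ltc4s lost its call without any 1 of the 4 (largest adjusted p = 0.217). Gfi1b, Inpp5d and Vav1 had fold changes of 1.19, 0.66 and 0.04 and did not pass.

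Interferon-induced genes had the highest median of the 37 lists, 1.78, against 0.02 for all genes. Of 21 tested, 11 were higher (all genes 5.37%) and none was lower. Mx1 read 304.1 and 421.8 in CD80lo mTEC and 10.7 and 9.8 in cTEC. Ifit3, an antiviral RNA-binding protein gene, read 962.1 and 977.8 against 111.7 and 113.3 (log2 fold change 3.05 ± 0.51, adjusted p = 0.00205). Mx2 read 327.6 and 389.0 against 26.9 and 31.8 (3.41 ± 0.39, adjusted p = 0.000121). These were not equally mTEC-wide, since CD80hi mTEC read 54.6 and 97.3 for Ifit3 and 38.3 and 38.8 for Mx2, but 159.8 and 157.5 for Mx1. The factors that carry the interferon signal to these genes, Irf7 and Irf9, were higher by 2.84 ± 0.33 (adjusted p = 0.000133) and 1.78 ± 0.32 (adjusted p = 0.00337). Ifi204, Rsad2 (viperin), Cxcl9, Iigp1, Isg15 and Usp18 had fold changes of 3.59, 2.59, 2.56, 2.07, 1.87 and 1.23. The inducer Irf1 was at 0.05 and the guanylate-binding protein gene Gbp2 at 0.49, both not past the threshold.

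The interferon list kept 8 of its 11 calls in all 4 fits without an array. Iigp1 lost its call without CD80lo array 2 or cTEC array 1, Isg15 without either CD80lo array or cTEC array 2, and Usp18 without any 1 of the 4 (largest adjusted p 0.0776, 0.324 and 0.152). The list's median was 0.97 in the set-centred comparison and 0.36 in unfractionated mTEC against the shared cTEC arrays. The same 3 genes lost their calls in the set-centred comparison (adjusted p 0.28, 0.553 and 0.137).

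The sequences before the transcription start were searched for the interferon-stimulated response element, to show what the members have in common besides their signal. The element was taken as GAAA, any 2 bases and GAAA again, and was sought on both strands in the 250 bases before each start of the RefSeq promoter table (build GRCm38.p6). Of the 15 tested interferon list genes in that table, 8 held a match at any of their starts (53.3%), against 3.38% of all 5556 tested genes there. Counted by single promoters, 2.98% of all 32851 held it. The match did not sort the genes by their call, since 3 of 6 higher genes and 5 of 9 genes not past the threshold held it. Shown are the 3 higher genes with a match and Ifit1, which has a match and did not pass (423.0 and 613.0 in CD80lo mTEC, 191.9 and 294.6 in cTEC, adjusted p = 0.271). They were chosen after their values were seen. Capitals mark the matches, which overlap one another in Isg15.
Ifit3, chr19:34583279-34583528, plus strand: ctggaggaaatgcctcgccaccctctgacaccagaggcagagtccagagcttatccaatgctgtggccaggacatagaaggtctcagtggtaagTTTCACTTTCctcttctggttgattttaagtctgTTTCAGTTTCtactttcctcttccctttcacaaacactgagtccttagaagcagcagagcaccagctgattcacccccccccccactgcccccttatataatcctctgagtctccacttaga
Isg15, chr4:156200819-156201068, minus strand: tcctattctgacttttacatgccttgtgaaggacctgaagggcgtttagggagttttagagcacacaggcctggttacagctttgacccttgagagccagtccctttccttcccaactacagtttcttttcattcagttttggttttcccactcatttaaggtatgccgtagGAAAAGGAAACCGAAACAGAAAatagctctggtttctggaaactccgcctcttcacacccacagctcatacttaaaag
Rsad2, chr12:26456453-26456702, minus strand: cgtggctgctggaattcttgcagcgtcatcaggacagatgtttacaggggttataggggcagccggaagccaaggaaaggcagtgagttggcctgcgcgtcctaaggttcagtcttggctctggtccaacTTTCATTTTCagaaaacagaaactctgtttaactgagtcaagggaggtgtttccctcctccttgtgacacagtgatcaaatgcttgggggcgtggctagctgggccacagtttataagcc
Ifit1, chr19:34640639-34640888, plus strand: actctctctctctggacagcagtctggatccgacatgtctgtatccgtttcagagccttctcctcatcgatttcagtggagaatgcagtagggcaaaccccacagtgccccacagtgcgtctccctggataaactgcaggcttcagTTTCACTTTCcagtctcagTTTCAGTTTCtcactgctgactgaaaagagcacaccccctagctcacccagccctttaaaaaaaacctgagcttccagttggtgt
The first base of the match lies 156 and 122 bases before the start in Ifit3, 78, 72 and 66 bases before it in Isg15, 120 bases before it in Rsad2, and 104 and 85 bases before it in Ifit1.

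Immediate early and stress genes are switched on by cells within minutes of a growth or stress signal. They were higher at 10 of 31 tested members (all genes 5.37%) and lower at none. The median was 1.09 here, 0.51 in the set-centred comparison and 0.08 in unfractionated mTEC against the shared cTEC arrays. Egr1, a zinc finger factor induced by growth factors, read 3645.6 and 3487.1 in CD80lo mTEC and 371.1 and 624.4 in cTEC (log2 fold change 2.88 ± 0.39, adjusted p = 0.000428). Its relative Egr2 read 910.2 and 1477.3 against 162.9 and 190.7 (2.69 ± 0.31, adjusted p = 0.000141), and Myc read 97.7 and 93.9 against 29.6 and 19.6 (1.80 ± 0.31, adjusted p = 0.00298). Fos, Fosb and Atf3 were bright in both cell types. Fos read 4407.4 and 4584.9 in CD80lo mTEC and 1756.2 and 2481.0 in cTEC, or 1.10 ± 0.31 on the log2 scale (adjusted p = 0.0475), and Fosb and Atf3 gave 1.29 and 1.27.

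Several of these values were close to the top of the cTEC arrays, and with probe sets left out that exceeded 2518 on any array, 5 of the 10 calls could still be made. Egr1, Egr2 and Myc kept their calls without each array. Fos, Fosb and Klf2 lost theirs without any 1 of the 4 (largest adjusted p 0.29, 0.23 and 0.337), Jun, Atf3 and Gadd45b without 3 of the 4 (0.113, 0.181 and 0.0994), and Ccn2 without CD80lo array 2 or cTEC array 2 (0.0902). In the set-centred comparison 2 of the 10 calls held, Egr2 at 2.04 and Gadd45b at 1.86, while Egr1 stood at 1.51 (adjusted p = 0.058) and Fos at 0.26 (adjusted p = 0.854). After quantile normalization Fos, Fosb and Atf3 fell to 0.34, 0.53 and 0.18 and did not pass.

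Egr2 carried a CArG box, the binding motif of serum response factor, as did 1.47% of all promoters on either strand. Of the immediate early genes tested, 2 of the 25 in the promoter table held it, and of the contractile genes 3 of 12. The Egr2 promoter is shown because this gene kept its call without each array and in the set-centred comparison, with the box in capitals 72 bases before the start. It is 1 of 5 RefSeq starts of the gene, 4 of which hold the box.
Egr2, chr10:67537619-67537868, plus strand: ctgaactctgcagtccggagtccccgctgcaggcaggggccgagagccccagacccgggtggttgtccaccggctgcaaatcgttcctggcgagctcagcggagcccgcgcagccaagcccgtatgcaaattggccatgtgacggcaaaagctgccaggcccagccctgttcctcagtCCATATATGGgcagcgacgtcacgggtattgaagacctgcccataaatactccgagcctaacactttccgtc

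Smooth muscle and contractile genes were higher at 7 of 16 members (all genes 5.37%) and lower at none. The list's median was 0.91 here and 0.47 in the set-centred comparison. Acta2, smooth muscle actin, read 1084.1 and 966.0 in CD80lo mTEC and 74.5 and 82.8 in cTEC (log2 fold change 3.62 ± 0.40, adjusted p = 0.000101). Tagln, the actin-binding protein transgelin, read 1085.4 and 877.2 against 162.0 and 62.7 (3.21 ± 0.42, adjusted p = 0.000335). CD80hi mTEC had little of either, at 121.6 and 144.5 for Acta2 and 43.7 and 46.5 for Tagln. Des (desmin), Myl9 (a myosin light chain), the tropomyosin genes Tpm2 and Tpm1, and Vcl (vinculin) were higher by 3.16, 1.87, 1.73, 1.52 and 1.34. Acta2, Tagln, Des and Tpm2 kept their calls without each array. Myl9 lost its call without CD80lo array 1 or cTEC array 2, Tpm1 without 3 arrays and Vcl without any 1 of the 4 (largest adjusted p 0.109, 0.0855 and 0.131), and in the set-centred comparison Tpm1 (0.76) and Vcl (0.59) lost theirs.

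**Figure D4:**
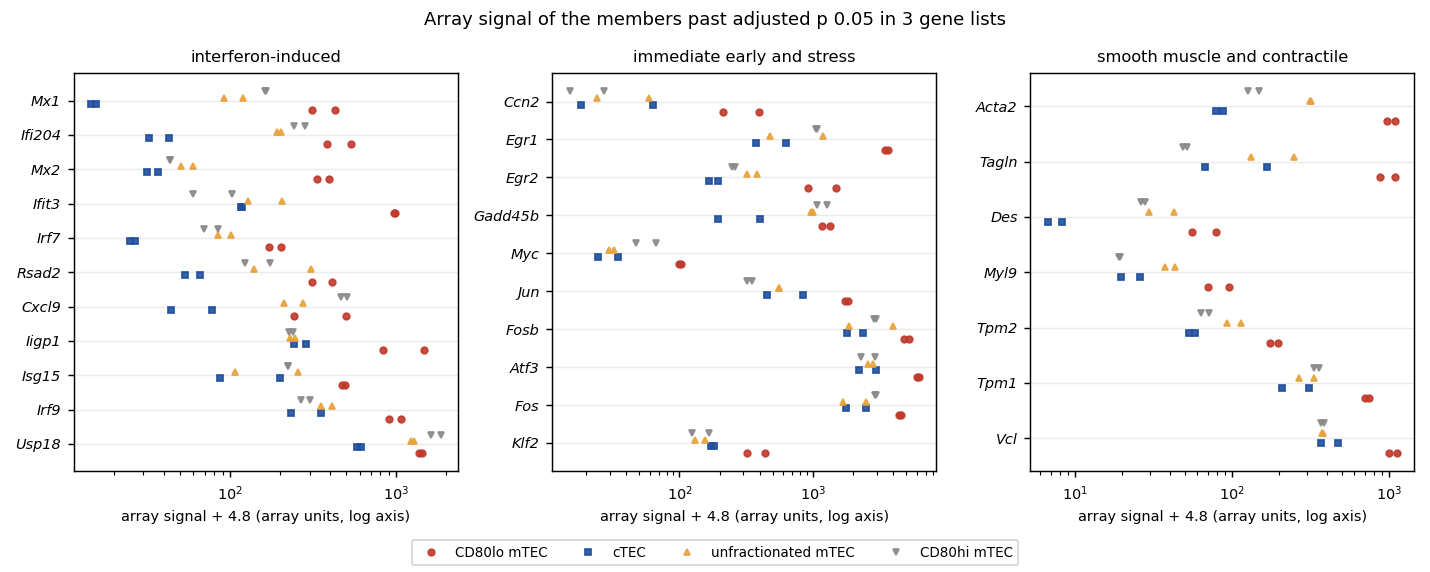
Signal + 4.8 (array units, log axis) of the 11 interferon-induced, 10 immediate early and stress, and 7 smooth muscle and contractile genes past adjusted p 0.05, 1 point per array for 4 wild-type groups. The choice of genes puts CD80lo mTEC above cTEC; CD80hi mTEC lie near cTEC for Mx2, Iigp1, Tagln, Vcl and Klf2.

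Collagens and matrix genes were higher at 11 of 32 members (all genes 5.37%) and lower at none, with a median of 1.10. Col6a1, a chain of the microfibrillar collagen VI, read 1214.9 and 1268.5 in CD80lo mTEC and 308.4 and 188.3 in cTEC (log2 fold change 2.34 ± 0.36, adjusted p = 0.00124). Col6a2 read 316.5 and 256.4 against 16.8 and 12.6 (3.90 ± 0.38, adjusted p = 4.04e-05). Bgn, the small proteoglycan biglycan, was higher by 2.68 ± 0.38 (adjusted p = 0.000701). These 3 kept their calls without each array. The laminin chain genes Lamb2, Lama4, Lama2 and Lama5, the nidogen gene Nid2 and the collagen genes Col5a2, Col1a1 and Col6a3 were higher by 1.56 to 2.25, and each lost its call without 2 or more of the arrays (largest adjusted p from 0.0716 for Lamb2 to 0.262 for Lama5). In the set-centred comparison Nid2 and Col1a1 lost their calls (adjusted p 0.177 and 0.0844).

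Because such genes are also made by mesenchyme and vessels, markers of those cells were read beside them. The summed signal of the fibroblast list was 2329.3 and 2095.3 on the CD80lo arrays and 1316.7 and 1607.8 on the cTEC arrays. Of its 16 tested members, 5 were higher (Mgp, Postn, S100a4, Col5a2 and Col1a1) and 1 was lower, Thy1, which thymocytes also carry. S100a4 lost its call without CD80lo array 1 or cTEC array 1, and Thy1 without CD80lo array 1 or cTEC array 2 (largest adjusted p 0.169 and 0.276). Mgp, matrix Gla protein, read 375.5 and 291.4 against 41.8 and 28.0 (log2 fold change 3.10 ± 0.39, adjusted p = 0.000244), and Postn, periostin, was higher by 3.0 ± 0.51 (adjusted p = 0.00247). The defining receptor genes Pdgfra and Pdgfrb gave 0.46 and 0.46 and did not pass. The endothelium list summed to 1203.7 and 702.5 on the CD80lo arrays and 157.2 and 271.1 on the cTEC arrays. Its median was 1.59, and 6 of 13 members were higher, against 5.37% of all genes. Vwf read 386.4 and 196.8 against 2.4 and 15.2, and Selp, P-selectin, read 146.0 and 112.4 against 2.8 and 4.1 (4.01 ± 0.68, adjusted p = 0.00228). Cdh5, Tie1, Emcn and Eng had fold changes of 2.84, 2.41, 2.37 and 1.77.

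Pecam1, a pan-endothelial adhesion gene, read 52.6 and 38.6 in CD80lo mTEC and 35 and 47.7 in cTEC, and Kdr gave a fold change of 0.19. Vwf and Selp kept their calls without each array, Eng lost its call without CD80lo array 1 or cTEC array 1, and Cdh5, Tie1 and Emcn lost theirs without any 1 of the 4 (largest adjusted p 0.337 for Eng and 0.395 for Emcn). Only Vwf held its call in the set-centred comparison, where Selp stood at 1.97 (adjusted p = 0.177). Selp read 2.4 and 4.3 in unfractionated mTEC and 4.3 and 2.9 in CD80hi mTEC. Its unfractionated signal thus lay below the mean of both fractions, which lowers its set-centred value. The part of mesenchymal or endothelial RNA in the matrix, contractile and interferon differences was not tested.

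Lists of developmental pathways were read beside all tested genes, of which 5.37% were higher and 2.37% were lower. In the BMP and Id list, 5 of 15 were higher and none lower, with a median of 0.93 here and 0.37 in the set-centred comparison. Besides Id1 these were the BMP and activin antagonist Fst (follistatin), at 76.1 and 49.7 against 1.4 and 2.0 (log2 fold change 3.35 ± 0.41, adjusted p = 0.00022), Id3 at 2.13, the receptor gene Bmpr1a at 1.84 and the ligand gene Bmp6 at 1.45. The ligand gene Bmp4 gave -0.10. Id1 and Fst kept their calls without each array. Id3 lost its call without 3 of the 4, and Bmpr1a and Bmp6 lost theirs without any 1 (largest adjusted p 0.143, 0.108 and 0.2). In the set-centred comparison Id3 (1.11) and Bmpr1a (0.73) lost their calls.

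In the Wnt list the receptor gene Fzd2 and the ligand gene Wnt10b were higher and Lef1, a nuclear effector that thymocytes also use, was lower, of 19 tested. Fzd2 read 255.5 and 218.7 against 37.8 and 26.1 (log2 fold change 2.73 ± 0.35, adjusted p = 0.000304) and kept its call without each array. Wnt10b (1.86) lost its call without CD80lo array 1 or cTEC array 1 and Lef1 (-1.60) without 3 of the 4 (largest adjusted p 0.107 and 0.459). In the Notch list Hes6, Notch3 and Notch1 were higher by 2.05, 1.57 and 1.21, of 17 tested, and each lost its call without 2 or more arrays (largest adjusted p 0.0588, 0.136 and 0.148). None of the 23 tested genes of the NF-kB and TNF receptor family passed in either direction with limma; at an unadjusted p under 0.05, 4 were higher and 2 lower. Its member Tnfrsf11a, the receptor RANK that drives medullary maturation, read 21.4 and 20.6 in CD80lo mTEC and 10 and 7.6 in cTEC (adjusted p = 0.19), and Cd40 read 226.2 and 165.3 against 265.5 and 216.3 (adjusted p = 0.683).

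Genes of MHC class I and class II presentation passed at a share near that of all genes, 7.74%. Of 15 genes of MHC class II and costimulation 1 passed, Cd83, and the class II genes H2-Aa, H2-Ab1 and H2-Eb1 gave fold changes of 0.91, 0.61 and 1.01 with adjusted p of 0.711, 0.447 and 0.281. Of 22 genes of class I presentation and the proteasome, Psme1, a proteasome activator, was higher (1.78 ± 0.45, adjusted p = 0.0274) and none was lower. Among 16 endosomal proteases and inhibitors, Ctsc, Ifi30 and Ctsz were higher by 1.77, 1.60 and 1.46. Psme1, Ctsc and Ctsz lost their calls without 3 or more of the arrays and Ifi30 without CD80lo array 1 or cTEC array 1 (largest adjusted p from 0.141 for Ctsc to 0.26 for Ctsz).

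Chemokine and cytokine genes were higher at 9 of 37 members (all genes 5.37%) and lower at 1, Cxcl12. Besides Ccl11, Ccl17 and Cxcl9, the higher ones included Ccl8, a monocyte chemokine, at 185.5 and 135.7 against 4.4 and 24.8 (log2 fold change 3.31 ± 0.47, adjusted p = 0.000701), and Il10 at 39.7 and 40.8 against 4.6 and 0.7 (2.65 ± 0.41, adjusted p = 0.00116). Both kept their calls without each array. Il6, Il1rn, Csf3 and Ccl7 were higher by 2.27, 1.88, 1.84 and 1.51, and each lost its call without 3 or more of the arrays (largest adjusted p 0.211, 0.109, 0.0789 and 0.217). In the set-centred comparison Il6 (0.77), Csf3 (0.70) and Ccl7 (0.58) lost their calls, and Il1rn stood at 3.40, and its CD80hi values were 1461.3 and 1587.8.

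Probe set 103012_at carries several gene symbols in the annotation and is therefore not named. It had the highest CD80lo signal of such probe sets called higher, and was chosen after its values were seen. It read 6279.7 and 5913.2 in CD80lo mTEC, 642.8 and 410.2 in cTEC, 1184.1 and 563.0 in unfractionated mTEC and 354.3 and 443.2 in CD80hi mTEC. Its log2 fold change was 3.56 ± 0.77 against cTEC (adjusted p = 0.0118), and the set-centred value of 2.63 did not pass (adjusted p = 0.101).

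The gut, liver, skin and milk lists of peripheral tissue genes, which medullary cells express promiscuously, had median fold changes near 0 in the direct comparison. The pancreas and gut list had a median log2 fold change of -0.02 with 5 of 23 members higher, the liver and plasma protein list 0.15 with 3 of 23, the skin list 0.12 with 1 of 13, and the milk and salivary gland list 0.14 with 1 of 12. Over all genes 5.37% were higher. The medians of these 4 lists were 3.47, 1.71, 2.38 and 3.25 in unfractionated mTEC against the shared cTEC arrays. The filter let in any probe set above 17.3 on at least 2 of the 16 arrays. These lists therefore include genes bright only in CD80hi or unfractionated mTEC. Csn1s2a of the milk list read 1.8 and 0.9 in CD80lo mTEC, 0.4 and 4.0 in cTEC and 131.1 and 107.0 in CD80hi mTEC. Such genes pull the direct medians towards 0 and raise the unfractionated ones. The set-centred medians were 1.66, 1.12, 1.47 and 1.52. That value takes unfractionated mTEC as the mean of both fractions, which Csn2, the beta-casein gene of the milk list, did not meet. Csn2, named after its values were seen, read 1790.8 and 1996.9 in unfractionated mTEC, near the 2462.4 and 3088.9 of CD80hi mTEC, and 98.7 and 39.0 in CD80lo mTEC against 34.9 and 118.7 in cTEC. Its log2 fold change was -0.06 directly and 2.08 set-centred, and neither passed (adjusted p 0.973 and 0.0653). Reg3g, an antimicrobial lectin of the gut, read 363.3 and 492.0 in CD80lo mTEC, 25.3 and 73.0 in cTEC and 3185.7 and 2847.2 in CD80hi mTEC. Sprr1a, a cornified envelope gene, read 384.1 and 311.3 in CD80lo mTEC, 33.8 and 60.6 in cTEC and 1369.3 and 1508.8 in CD80hi mTEC (log2 fold change against cTEC 2.80 ± 0.39, adjusted p = 0.000516). Chgb, the granule protein secretogranin 1, differed in that its CD80lo and CD80hi signals overlapped, with 162.5 and 237.5 in CD80lo mTEC, 15.2 and 16.5 in cTEC and 174.7 and 253.5 in CD80hi mTEC (3.29 ± 0.42, adjusted p = 0.000305).

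Vil1, Iapp and Tff3 of the pancreas and gut list were higher by 2.03, 2.60 and 1.95, Rbp4, Ambp and Crp of the liver list by 2.40, 2.13 and 1.74, and the kallikrein gene Klk1 by 2.84. Chgb, Vil1, Iapp, Rbp4 and Sprr1a kept their calls without each array. Reg3g, Tff3 and Crp lost theirs without 3 arrays, Ambp without any 1 and Klk1 without CD80lo array 1 or cTEC array 1 (largest adjusted p 0.148, 0.342, 0.105, 0.133 and 0.0804). The striated muscle list had 7 of 25 members higher (all genes 5.37%), with a median of 0.90 here and 1.25 in the set-centred comparison. Its skeletal actin gene Acta1 read 52.4 and 37.3 against 1.0 and 1.7 (3.0 ± 0.32, adjusted p = 7.23e-05), the cardiac actin gene Actc1 was at 2.34, and Myog, the differentiation factor myogenin, read 103.5 and 91.9 against 19.8 and 13.5 (2.27 ± 0.35, adjusted p = 0.00119). These 3 kept their calls without each array, and Myog lost its call in the set-centred comparison (1.34, adjusted p = 0.0605). Actn3, Tnni1, Myl1 and Chrne were higher by 2.25, 1.53, 1.42 and 1.31, and lost their calls without 1 to 4 of the arrays.

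**Figure D5:**
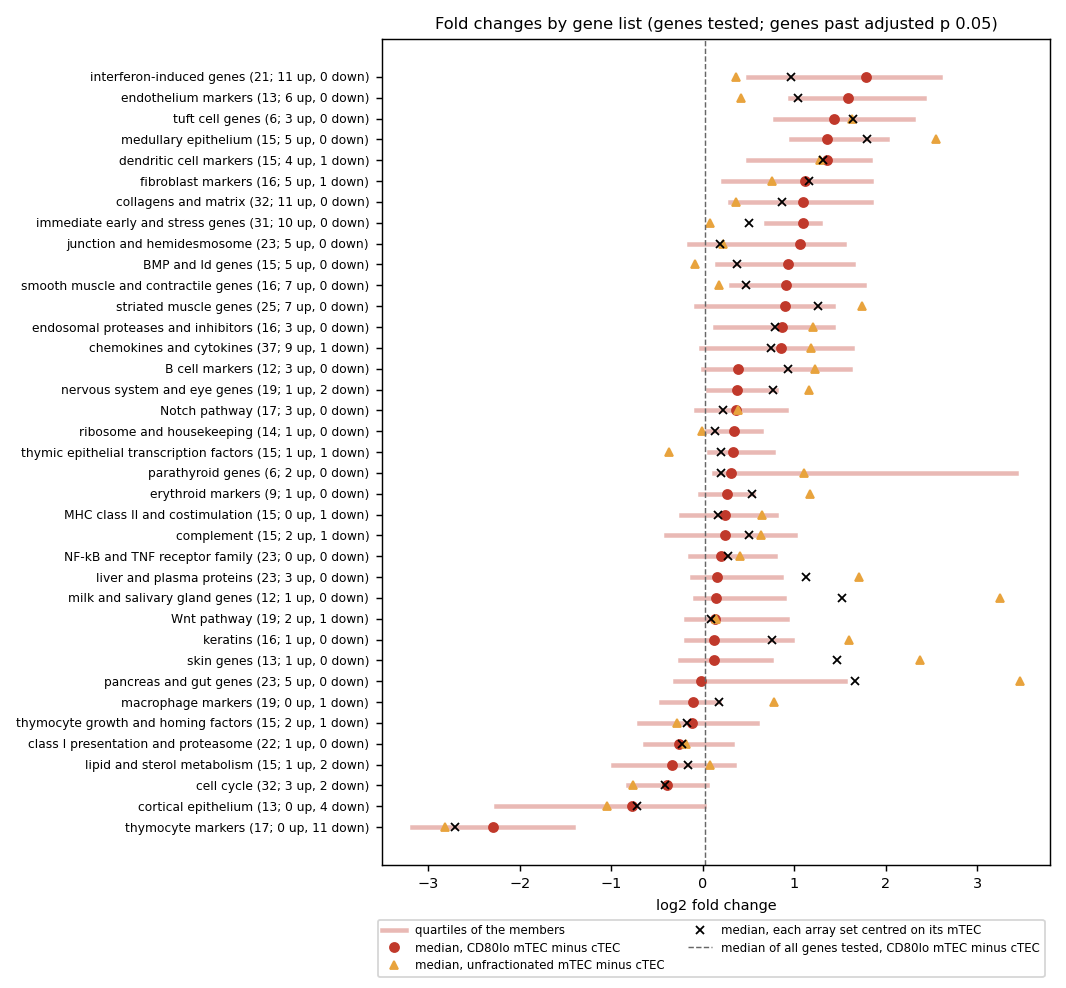
Median log2 fold change of each of the 37 gene lists for CD80lo mTEC minus cTEC (red points, with the quartiles of the members as bars), for unfractionated mTEC minus the same cTEC arrays (orange triangles) and for the set-centred value (crosses); the labels give the genes tested and the numbers higher (up) and lower (down). Interferon-induced genes have the highest red point at 1.78 and thymocyte markers the lowest at -2.30, and the tissue lists of gut, milk, skin and liver lie near 0 where unfractionated mTEC lie above 1.5.

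The genes lower in CD80lo mTEC were led by T lineage genes. Cd8b1, the CD8 beta chain, read 23.1 and 48.9 in CD80lo mTEC and 1252.7 and 2121.1 in cTEC, the lowest fold change of all named genes (-5.40 ± 0.57, adjusted p = 7.23e-05). Cd8a read 38.0 and 46.8 against 691.8 and 1140.9 (-4.25 ± 0.67, adjusted p = 0.00143), and Zap70, the T cell receptor kinase, 36.9 and 65.0 against 554.6 and 708.8 (-3.55 ± 0.61, adjusted p = 0.0025). With Cd5, a scavenger-receptor-like inhibitor of T cell receptor signals, 4 of the 12 lowest genes were on the thymocyte list. In that list 11 of 17 members were lower (all genes 2.37%) and none was higher, with a median of -2.30. The recombinase genes Rag1 and Rag2 and the template-free polymerase gene Dntt, which thymocytes use while rearranging their receptors, had fold changes of -3.17, -2.30 and -2.41, and Cd3e, Cd2, Satb1 and Lef1 of -2.46, -2.22, -2.10 and -1.60. A second probe set of Rag1 gave 0.68 and did not pass.

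The thymocyte markers summed to 478.4 and 1428.3 on the CD80lo arrays, 4707.6 and 8208.7 on the cTEC arrays and 691.8 and 703.0 on the unfractionated mTEC arrays, so the cTEC arrays were high whichever mTEC group they were set against. The unfractionated median was -2.82 and the set-centred one -2.71. The part of thymocyte RNA in the other lower genes was not tested. Cd8a, Cd8b1, Rag2 and Zap70 kept their calls without each array. Cd5 and Rag1 lost theirs without CD80lo array 1 or cTEC array 2, Lef1 and Dntt without 3 arrays, and Cd2, Cd3e and Satb1 without any 1 (largest adjusted p from 0.107 for Cd5 to 0.459 for Lef1). In the set-centred comparison Cd5, Dntt and Lef1 lost their calls (adjusted p 0.0768, 0.0525 and 0.219).

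The other genes of the 12 lowest included Enpep of the cortical list and Nefm of the nervous system list. Inmt, indolethylamine N-methyltransferase, read 12.5 and 29.2 in CD80lo mTEC and 886.9 and 857.4 in cTEC (log2 fold change -5.18 ± 0.56, adjusted p = 8.92e-05), with 46.3 and 42.7 in unfractionated mTEC. Snap91 and Nsg2, genes of neuronal vesicle traffic, gave -3.88 ± 0.56 and -4.82 ± 0.50, and both were also lower than in CD80hi mTEC, with fold changes of -2.93 and -3.11. Nsg2 read 2.3 and 4.6 in CD80lo mTEC, 204.8 and 249.3 in cTEC and 58.9 and 73.6 in CD80hi mTEC. Adarb1, an RNA-editing adenosine deaminase, read 37.1 and 27.9 against 498.6 and 255.1 (-3.29 ± 0.51, adjusted p = 0.00124). Endou, Sh2d2a (a T cell adaptor) and Nefm (a neurofilament) had fold changes of -3.42, -3.33 and -3.22. Enpep, Inmt, Nsg2, Snap91 and Adarb1 kept their calls without each array, and Endou, Sh2d2a and Nefm lost theirs without 2 or 3 arrays (largest adjusted p 0.129, 0.3 and 0.144). Sh2d2a also lost its call in the set-centred comparison (adjusted p = 0.125).

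Metabolic and proliferation genes gave smaller groups. Of 15 genes of lipid and sterol metabolism, Fasn, fatty acid synthase, was lower at 207.8 and 176.0 against 521.9 and 620.1 (log2 fold change -1.55 ± 0.29, adjusted p = 0.00508), Lpl, lipoprotein lipase, was lower at -3.17 with a second probe set at -0.28, and Scd1, stearoyl-CoA desaturase, was higher by 2.71 with 1 of its other probe sets at -0.08. Fasn lost its call without CD80lo array 2 (adjusted p = 0.061), and Lpl and Scd1 lost theirs without any 1 array (largest adjusted p 0.128 and 0.134). In the cell cycle list of 32, the inhibitor gene Cdkn1c (2.15) and the cyclin genes Ccnd2 (2.46) and Ccnd1 (1.66) were higher, the replication licensing gene Cdc6 (-2.10) and the cyclin gene Ccnd3 (-1.89) were lower, and the median was -0.39. Cdkn1c and Ccnd2 kept their calls without each array, and Ccnd1, Ccnd3 and Cdc6 lost theirs without 3 or more (largest adjusted p 0.296, 0.239 and 0.126). Of 14 ribosome and housekeeping genes 1 was higher, Actb at 1.75 ± 0.44 (adjusted p = 0.0265), with a second probe set at 1.39 that did not pass. Actb was at 1645.2 and 1527.7 in CD80hi mTEC of the same array set as the CD80lo arrays, where it read 1867.3 and 1415.9. Its set-centred value was 0.32 (adjusted p = 0.885).

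Markers of other haematopoietic cells differed in direction from list to list. The macrophage list had 1 of 19 members lower, C1qc (-1.54, adjusted p = 0.0475), and none higher. The dendritic cell list, whose genes Ccr7, Fscn1, Irf4 and Ccl17 mTEC also express, had 4 of 15 higher, at 1.97, 2.02, 1.45 and 1.79. Its lower member was Cd8a, which is also on the thymocyte list. At an unadjusted limma p under 0.05, 9 members of the dendritic cell list were higher and 2 lower. Ccr7 and Fscn1 lost their calls without CD80lo array 1 or cTEC array 1, and Irf4 without any 1 of the 4 (largest adjusted p 0.183, 0.17 and 0.418). The summed signal of that list was 6397.2 and 4890.0 on the CD80lo arrays and 2745.0 and 4340.3 on the cTEC arrays, and that of the macrophage list was 2083.2 and 2098.1 against 2380.4 and 3057.3. In the B cell list Spib, Fcer2a and Pou2af1 were higher of 12. Spib kept its call without each array, Fcer2a lost its call without CD80lo array 1 or cTEC array 1, and Pou2af1 without 3 arrays (largest adjusted p 0.126 and 0.282). The complement list had Serping1, the C1 inhibitor, higher by 2.82 ± 0.31 (adjusted p = 9.43e-05), C1ra higher by 1.71 and C1qc lower. Serping1 kept its call without each array, while C1qc lost its call without any 1 and C1ra without CD80lo array 1 (adjusted p 0.295 and 0.0592).

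The lists not yet described are given beside the 7.74% of all tested genes that were called. Of 19 nervous system and eye genes, Tac1, the substance P precursor gene, was higher at 64.1 and 84.6 in CD80lo mTEC against 4.5 and 5.5 in cTEC (adjusted p = 0.00019) and kept its call without each array. Penk, the enkephalin precursor gene, was lower with Nefm, at 137.0 and 138.9 against 703.7 and 532.7 (log2 fold change -2.11 ± 0.41, adjusted p = 0.00605), with a second probe set at 0.27 and a set-centred value of -0.90 that did not pass. Its call was lost without CD80lo array 1 or cTEC array 1 (largest adjusted p = 0.0667). Of 15 thymocyte growth and homing factors, Wnt10b and Igf2 were higher and Cxcl12 was lower. Igf2, a growth factor, read 65.2 and 66.8 against 22.4 and 13.4 and lost its call without any 1 array (largest adjusted p = 0.195). The erythroid list had 1 of 9 higher, Car2 at 1.56, a carbonic anhydrase gene that other cells use too, which lost its call without 3 of the 4 arrays (largest adjusted p = 0.0899). Besides the genes already given, Ccr7, Pou2af1, C1ra, C1qc, Notch3, Ltc4s, Myl1, Chrne and Lpl lost their calls in the set-centred comparison.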

How the data were processed

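The deposited value table holds 1 linear intensity per probe set and array for 12488 probe sets of an Affymetrix mouse array, which the authors had scaled to a common mean by software that is not given in the sources used here. Every array had a 2%-trimmed mean of 100.1, so the values were used as deposited. Groups came from the sample titles.

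After removal of 66 control probe sets, the 9319 above 17.3 (the 40th percentile of all values) on at least 2 arrays were tested. The deposited intensities were turned into log2(signal + 4.8) values here, and limma 3.58.1 in R 4.3.3 fitted all 8 groups (lmFit, eBayes with trend, 8 residual degrees of freedom). Gene symbols came from the platform annotation, of which 10817 of 10833 single symbols were matched to current names in RefSeq's GRCm38.p6 table. Probe sets with the suffix _f_at or _s_at, among them those of Ifi204, Cavin3, Cldn7, Chgb, Klk1, Actb and Cd8b1, can take signal from related transcripts. A gene was read from its brightest probe set over all arrays.

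Named genes were the 12 highest and 12 lowest past the threshold, the 2 smallest p-values of each of 37 lists, all tested cortical, medullary and transcription factor genes, and Pth, Pax1, Aire and Cd80; other list members past the threshold were added after their values were seen. The comparison and the lists were chosen with earlier results of these data known. The fit was tested on simulated data with normal noise. It recovered 8% of planted log2 changes of 1 and 72% of those of 2, with 50 planted of each. Changes of 3 and 4 were all recovered, and 4 of 144 calls were false. A gene not past the threshold may thus still differ. Alternatives covered normalization, constant, filter, trend, block, groups fitted, probe set choice, single arrays and array set. The number of arrays limits the precision.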

Additional observations from a re-analysis of the deposited data

How the results depend on the processing

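The 153 genes past the threshold that the text names or groups kept their direction under all 16 alternatives in which they were tested, and none reversed. Quantile normalization kept 139 of their calls, no filter 136, the fit of the compared groups alone 137, and the set-centred comparison 110. The 14 genes that lost their calls after quantile normalization were Emcn, Il6, Tff3, Ccl17, Lama5, Igf2, Col17a1, Tnni1, Ccl7, Bmp6, Chrne, Fosb, Atf3 and Fos, and all of them also lost the call without 3 or more of the 4 arrays. Fos, Fosb and Atf3 fell from 1.10, 1.29 and 1.27 to 0.34, 0.53 and 0.18. The others kept from 0.83 (Bmp6) to 0.97 (Chrne) of their log2 fold change. With probe sets of one gene averaged, Emcn, Ctsc, Chrne, Lef1, Penk and Rag1 lost theirs. The probe set counts below include all that left the range of 1.5 times the main count. Some counts given beside them stayed within it, such as the total and the higher calls under either replicate block. The set-centred comparison gave 114 lower probe sets against 196. Same-numbered arrays deviated together in all 6 pairs of groups without CD80 sort (r = 0.279 to 0.526) but hardly in cTEC and CD80lo mTEC (r = 0.0916). Deviations were also shared by CD80hi and CD80lo mTEC of Aire knockout mice (r = 0.517). Each of these knockout groups shared them with thymic dendritic cells and macrophages too (r = 0.335 to 0.383). With 2 numbers the arrays were not taken as paired. A replicate block over all arrays gave 1019 calls against 682 (706 higher and 313 lower), and a block over the arrays without CD80 sort gave 1015 (699 higher and 316 lower). Both blocks kept the 153 named calls and added those of Elf3, Scx and Ctss as higher (adjusted p for Scx 0.0253 and 0.0152), the first also that of Relb and the second that of Ccl25 as lower (adjusted p = 0.0384). The immediate early list had 15 members higher under either block against 10, and the medullary list 7 and 6 against 5. For unfractionated mTEC against cTEC the block over all arrays gave 602 lower against 396. Fitting only the compared groups gave 2456 calls for CD80lo against CD80hi mTEC (1152 higher and 1304 lower), against 1186. Leaving out 1 array gave 205 to 372 calls for CD80lo mTEC against cTEC (168 to 298 higher, 37 to 80 lower), 860 to 946 for unfractionated mTEC against cTEC (694 to 749 higher, 166 to 200 lower) and 626 to 681 for CD80lo against CD80hi mTEC (177 to 204 higher, 428 to 477 lower), with fewer samples in each fit and a lone array assumed to vary like the other groups. Higher probe sets were 71.3% of the calls in the main comparison, 65.7% after quantile normalization and 79.7% in the set-centred one. The alternative without the 210 probe sets above 2518 on any array was chosen after seeing the data and gave 469 higher and 193 lower. The number of arrays, 2 per group, limits the precision.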
